A study of Rattus norvegicus with 8 samples.

Results

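The NRF2 axis and the glutathione synthesis pathway were followed through 10 genes in rat liver, and every probe set on the array whose single platform gene symbol was one of these genes was used. This gave 14 probe sets (a probe set is a group of short probes for 1 transcript) of 31042 on the array other than control probe sets. Keap1 and Gclc had 2 probe sets each, Srxn1 had 3 and the other 7 genes had 1. NRF2, the product of Nfe2l2, is a transcription factor that switches on antioxidant and detoxifying genes. In unstressed cells KEAP1 captures NRF2 and hands it to a ubiquitin ligase for degradation, and oxidants or electrophiles block that capture, so that NRF2 activity is set mainly at the level of protein. Its targets include enzymes that make glutathione, the main small thiol of hepatocytes, of which the liver is a major exporter.

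The livers came from male Sprague-Dawley rats, an outbred strain, at 8 weeks of age. Control rats had drunk sterilized distilled water for 4 weeks, and the other rats hydrogen water with 0.7 mM dissolved molecular hydrogen for the same time. The study kept 8 animals per group, and 4 arrays per group were analysed here. The labels tie no array to an animal and do not state if animals were pooled, and p-values therefore reflect only how far these arrays scatter, which may be technical.

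Array medians of the deposited signal lay between 17.2 and 26.8, and quantile normalization came first, so that levels below are log2(signal + 2.05) after that step. Before it, brightness (the mean signal after 2% trimming) was 115 ± 18.7 for control arrays and 91.5 ± 10.4 for hydrogen water arrays (SD, n = 4 per group), with p = 0.114 by a two-sided exact permutation test. For Gapdh, whose 3′ and 5′ probe sets drift apart as RNA degrades, the log2 ratio of 3′ to 5′ signal averaged 0.22 ± 0.10 and 0.38 ± 0.08 in the same order (SD, n = 4 per group), with p = 0.0571 by that exact test. Some values with either of these added to the fit as a covariate are given below beside the members. The hepatocyte products Alb, Apoa1 and Ttr had mean signals above those of at least 99.8% of probe sets. The number of arrays limits the precision.

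NRF2 acts through antioxidant response elements, short DNA motifs that it binds as a dimer with a small MAF protein. RefSeq promoter windows of assembly GRCr8, from 250 bases before to 50 after a start of the gene, were at hand for 9 of the 10 genes, all but Gsr. They were searched on both strands for the element core TGACNNNGC and for a second element, TGANTCAGC. The search also took in TGAGTCA, the AP-1 element. The second element contains those letters when its N is G, and on the other strand when its N is C. The core was in 2 of the 9 windows, those of Nfe2l2 and Gclm, and in 12.1% of all 33465 windows of this length. The second element was in the window of Srxn1 alone among the 9, and in 1.11% of all windows. TGAGTCA occurred in the same Srxn1 window and in 4.63% of all windows. The stretches of Srxn1 and Gclm that hold the matches are shown because these target genes were measured here, with the matched letters in capitals.
Srxn1, chr3:161064672-161064815, plus strand: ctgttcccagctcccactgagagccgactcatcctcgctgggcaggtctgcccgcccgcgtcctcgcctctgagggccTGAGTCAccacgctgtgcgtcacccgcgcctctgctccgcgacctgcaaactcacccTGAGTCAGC
Gclm, chr2:213031905-213032044, plus strand: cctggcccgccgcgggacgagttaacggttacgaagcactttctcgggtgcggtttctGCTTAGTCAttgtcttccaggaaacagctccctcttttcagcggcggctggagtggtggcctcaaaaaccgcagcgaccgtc
Counted from the start, with no base 0, the Srxn1 matches begin at bases −62 and −5. The one at −5 carries both the AP-1 letters and the second element. The Gclm match begins at base −172 and reads TGACTAAGC on the other strand. The Nfe2l2 match, TGACGCCGC, begins at base 39 of its window's transcript. A match is a run of letters, not a measured binding site, and the windows of Nfe2l2, Osgin1 and Ggt1 lie at a start 2166, 13565 and 8447 bases inside the annotated gene.

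None of the 10 genes differed between hydrogen water and control livers beyond the threshold. Of the 14 probe sets, 12 passed the filter on low signal and were tested, for 9 genes; the filter used the mean over all arrays, not the groups. In limma, 0 of the 12 had an adjusted p under 0.05, where 0.825% of all 15521 tested probe sets did, and 1, Nfe2l2, had an unadjusted p under 0.05, a share of 8.33% against 12.5% over all tested probe sets. The differences ran from −0.88 to 0.11 on the log2 scale with a median of −0.11, against −0.0011 over all tested probe sets. The tested members were lower with hydrogen water at 9 probe sets and higher at 3, while 50.3% of all tested probe sets were lower. The groups did not overlap at 1 of the 12, again Nfe2l2, or 8.33%, against 7.48% of all tested probe sets. For 6 of the 12, the 95% confidence interval lay within a 1.5-fold difference in either direction: both probe sets of Keap1, both of Gclc, and those of Gclm and Gsr. The count of members past the threshold was also 0 in each of the 22 other settings tried, in which the lowest adjusted p of a member was 0.0567, for Nfe2l2 without normalization between arrays. In that setting all 12 tested members were lower, as were 91.8% of all tested probe sets, and the median of all probe sets was itself shifted by −0.27.

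**Figure D1:**
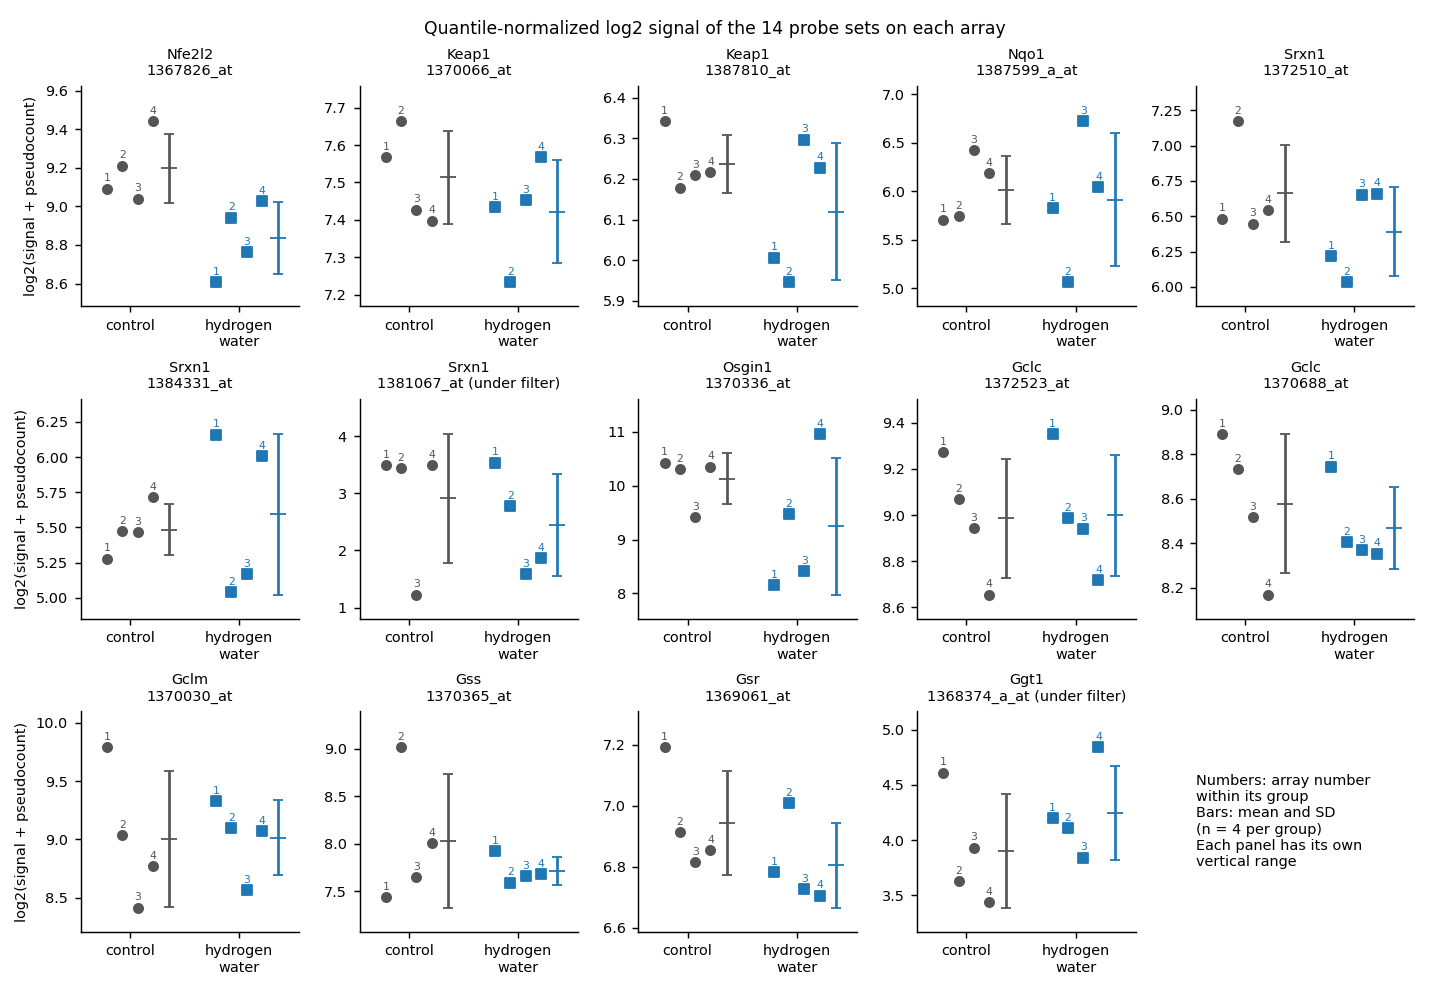
Log2 signal after quantile normalization (vertical axes, each with its own range) of the 14 probe sets on 4 control arrays (grey circles) and 4 hydrogen water arrays (blue squares), numbered within each group, with the mean and SD beside them. The groups are apart only for Nfe2l2, by 9.04 for the lowest control array against 9.03 for the highest hydrogen water array, and Osgin1 spans 8.15 to 10.96.

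Nfe2l2, which encodes NRF2 itself, had log2 signals of 9.09, 9.21, 9.04 and 9.44 on control arrays 1 to 4 and of 8.61, 8.94, 8.76 and 9.03 on hydrogen water arrays 1 to 4. All hydrogen water arrays lay below all control arrays, and the nearest values of the groups, 9.04 and 9.03, all but touched. Groups without overlap in this direction were found at 3.63% of all tested probe sets. The means were 9.20 ± 0.18 and 8.84 ± 0.19 (SD, n = 4 per group). The difference of −0.36 ± 0.12 (SE), or 1.29-fold lower with a 95% confidence interval of 1.07 to 1.54-fold, did not pass in limma (unadjusted p = 0.0112, adjusted p = 0.218), and 793 probe sets had a smaller p. It was negative in each of the 22 other settings, between −0.69 without normalization and −0.28 without control array 4. The 95% interval included 0 with spike-in scaling, where the groups overlapped (adjusted p = 0.571), and with array brightness as a covariate (adjusted p = 0.524). With the Gapdh ratio as a covariate the difference was −0.48 ± 0.16 (SE; adjusted p = 0.190 in limma).

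**Figure D2:**
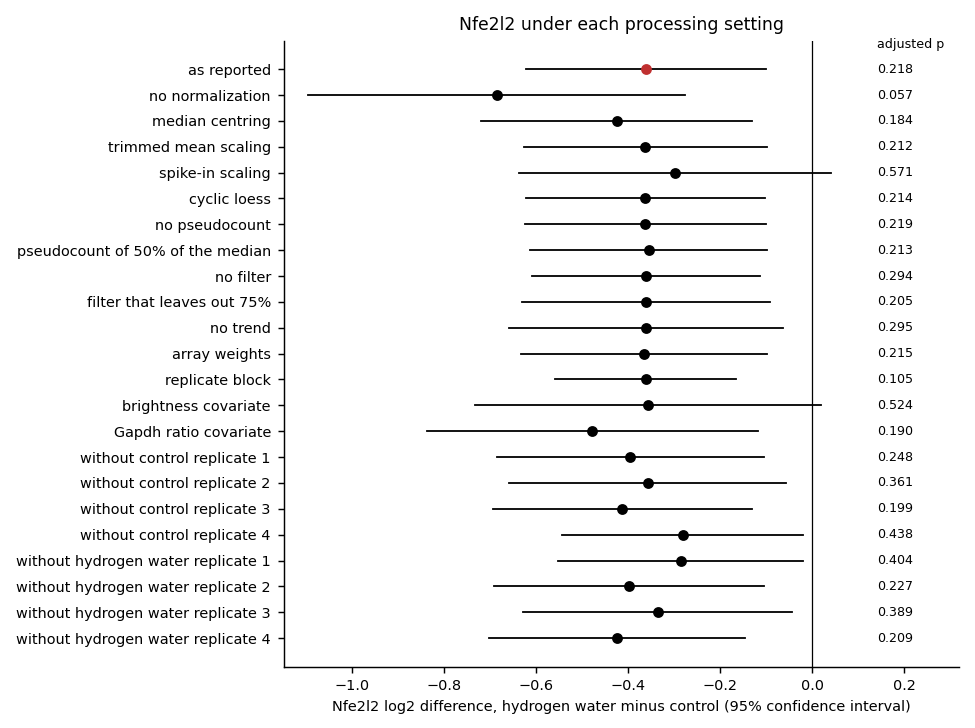
Log2 difference of Nfe2l2 between hydrogen water and control (horizontal axis, point) with its 95% confidence interval (line) as reported (red) and in the 22 other settings (black), with the limma adjusted p at the right. Every point lies below 0, every adjusted p lies at or above 0.0567, and the intervals for spike-in scaling and for the brightness covariate cross 0.

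Keap1, the adaptor that marks NRF2 for degradation, had the smallest SD over the 8 arrays of the 10 genes, 0.13. At probe set 1370066_at its log2 signals were 7.57, 7.66, 7.43 and 7.40 in controls and 7.43, 7.23, 7.45 and 7.57 with hydrogen water. Over all 8 arrays it spanned 1.35-fold, and the groups overlapped. The difference was −0.09 ± 0.11 (SE; adjusted p = 0.810 in limma), and the 95% interval of −0.34 to 0.15 reaches from 1.26-fold lower to 1.11-fold higher. The other Keap1 probe set, 1387810_at, differed by −0.12 ± 0.13 (SE; adjusted p = 0.786), with 2 hydrogen water arrays, 1 and 2, below all the others at 6.01 and 5.95. The pair of Keap1 probe sets correlated at r = 0.60 over the 8 arrays (exact permutation p = 0.118, adjusted p = 0.176 over 3 such relations; Spearman's rho = 0.46, p = 0.258, adjusted p = 0.387), and at r = 0.46 without control array 2 and hydrogen water array 2.

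Among direct NRF2 targets, Nqo1 encodes a quinone reductase that spares cells redox cycling and is a standard readout of NRF2 activity. Its log2 signals were 5.71, 5.74, 6.43 and 6.19 in controls and 5.82, 5.07, 6.72 and 6.04 with hydrogen water. The hydrogen water group held both the lowest and the highest array, arrays 2 and 3, so that the groups overlapped fully. The difference was −0.10 ± 0.31 (SE; adjusted p = 0.943 in limma), with a 95% interval from 1.71-fold lower to 1.49-fold higher. Its sign turned without control array 3 or hydrogen water array 2 and with the Gapdh ratio as a covariate. The probe set name ends in _a_at, which marks probes shared by several transcripts of a gene.

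Srxn1 encodes sulfiredoxin, which repairs overoxidized peroxiredoxins. Probe set 1372510_at, the brightest of its 3, gave 6.48, 7.17, 6.45 and 6.54 in controls and 6.22, 6.04, 6.65 and 6.66 with hydrogen water. Control array 2 stood above the rest, and 2 hydrogen water arrays lay below every control and 2 among them. The difference was −0.27 ± 0.20 (SE, adjusted p = 0.658 in limma), and −0.10 without control array 2. With brightness as a covariate it was −0.50 ± 0.26 (SE, adjusted p = 0.570 in limma). Probe set 1384331_at differed in the other direction, by 0.11 ± 0.25 (SE; adjusted p = 0.922), with hydrogen water arrays on both sides of the controls. Probe set 1381067_at did not pass the filter, with a mean above that of 21.4% of probe sets. Its signals ran from 1.22 to 3.50 in controls and from 1.59 to 3.54 with hydrogen water. In the fit without the filter it differed by −0.47 ± 0.60 (SE, adjusted p = 0.883 in limma). The brightest pair of Srxn1 probe sets correlated at r = 0.05 over the 8 arrays (exact permutation p = 0.906, adjusted p = 0.906 over 3 such relations; Spearman's rho = 0.24, p = 0.582, adjusted p = 0.582), and at r = −0.44 without control array 2 and hydrogen water array 2, so these probe sets did not rank the arrays alike.

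Osgin1, an oxidative stress-induced growth inhibitor and NRF2 target, was the most variable member. Its log2 signals were 10.43, 10.31, 9.42 and 10.35 in controls. With hydrogen water they were 8.15, 9.47, 8.42 and 10.96, so that arrays 1 and 3 lay below every control and array 4 above every control. The whole range was 7.02-fold, and only 0.657% of tested probe sets had an SD over the 8 arrays as large as its 1.01. Within hydrogen water the SD was 1.28 against 0.47 within controls, a ratio of 2.69 that 8.00% of tested probe sets reached. The difference was −0.88 ± 0.51 (SE; unadjusted p = 0.112, adjusted p = 0.540 in limma), with a 95% interval from 4.00-fold lower to 1.18-fold higher. Hydrogen water array 4 weighed most on it: without that array the difference was −1.45 ± 0.32 (SE; unadjusted p = 0.00104, adjusted p = 0.107), and without hydrogen water array 1 it was −0.51 (adjusted p = 0.767). With brightness as a covariate it was −0.32, and with the Gapdh ratio −1.20 (adjusted p = 0.939 and 0.475 in limma).

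**Figure D3:**
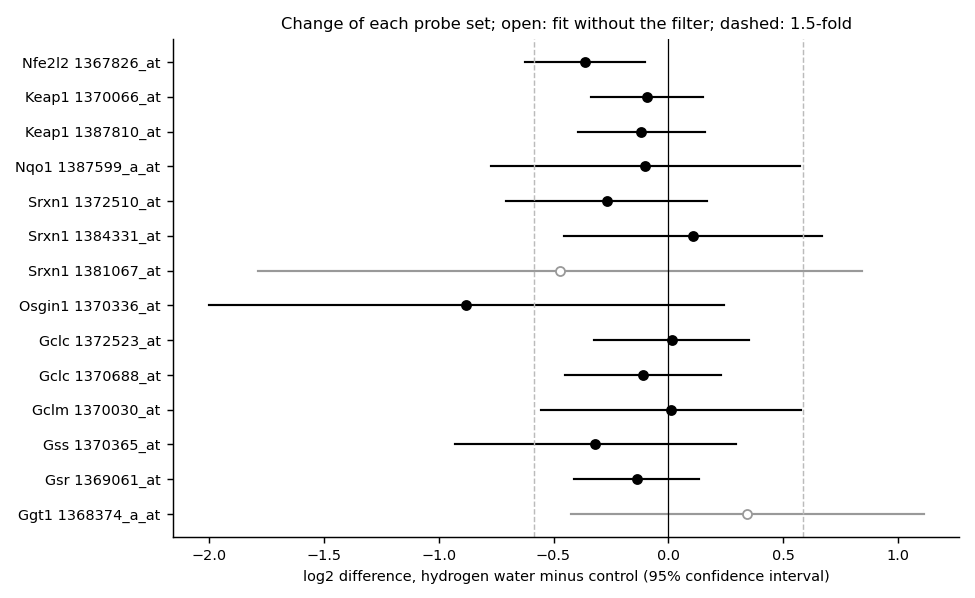
Log2 difference between hydrogen water and control (horizontal axis, point) with its 95% confidence interval (line) for the 14 probe sets (rows), filled for the 12 tested and open for the 2 under the filter, which are from a fit without the filter. Dashed lines mark 1.5-fold; the interval of Nfe2l2 alone lies wholly on 1 side of 0, and that of Osgin1 is the widest of the 12 tested.

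Glutathione is made in 2 steps, first by glutamate-cysteine ligase, which has a catalytic subunit, Gclc, and a modifier subunit, Gclm, and then by glutathione synthetase, Gss. Gclc gave 9.27, 9.07, 8.94 and 8.65 in controls and 9.35, 8.99, 8.94 and 8.72 with hydrogen water at probe set 1372523_at. The groups covered nearly the same range, and the difference was 0.01 ± 0.15 (SE; adjusted p = 0.987 in limma), with a 95% interval from 1.25-fold lower to 1.28-fold higher. The other Gclc probe set, 1370688_at, differed by −0.11 ± 0.15 (SE; adjusted p = 0.843). The pair ranked the arrays almost alike, with r = 0.90 (exact permutation p = 0.00139, adjusted p = 0.00417 over 3 relations), Spearman's rho = 0.95 (p = 0.00114, adjusted p = 0.00342) and r = 0.88 without control array 4 and hydrogen water array 1. Control array 1 was at or near the top and control array 4 lowest at both probe sets.

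Gclm, which raises the efficiency of the ligase, gave 9.79, 9.03, 8.41 and 8.77 in controls and 9.33, 9.10, 8.56 and 9.07 with hydrogen water. All hydrogen water arrays lay within the range of the controls, and the difference was 0.01 ± 0.26 (SE; adjusted p = 0.993 in limma), with a 95% interval from 1.47-fold lower to 1.49-fold higher. The signs of the near-zero differences of Gclm and of Gclc probe set 1372523_at turned without normalization and with median centring. Gss gave 7.44, 9.02, 7.65 and 8.01 in controls and 7.92, 7.59, 7.66 and 7.68 with hydrogen water. Control array 2, at 9.02, stood above the next at 8.01, and the hydrogen water arrays lay close together. The difference of −0.32 ± 0.28 (SE; adjusted p = 0.724 in limma) was 0.01 without control array 2, and −0.97 ± 0.25 with brightness and −0.95 ± 0.29 with the Gapdh ratio as a covariate (adjusted p = 0.187 and 0.151).

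Gsr, the reductase that regenerates glutathione from its oxidized form, gave 7.19, 6.91, 6.81 and 6.85 in controls and 6.78, 7.01, 6.73 and 6.71 with hydrogen water. Of the hydrogen water arrays 3 lay just below the controls and array 2 among them. The difference was −0.14 ± 0.12 (SE; adjusted p = 0.732 in limma), with a 95% interval from 1.33-fold lower to 1.10-fold higher. Ggt1, the surface enzyme that begins the breakdown of glutathione outside the cell and that adult hepatocytes make little of, did not pass the filter. It gave 4.61, 3.63, 3.93 and 3.44 in controls and 4.20, 4.11, 3.84 and 4.85 with hydrogen water, with a mean above that of 45.5% of probe sets. The groups overlapped, and in the fit without the filter the difference was 0.34 ± 0.35 (SE; adjusted p = 0.844 in limma).

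The members did not move together over the 8 arrays as one set. With the brightest probe set standing for each gene, 45 pairs were compared. Ggt1 was among the genes although its probe set did not pass the filter, while the tested probe sets used for comparison all did. Over the 45 pairs r was above 0 for 27 and below 0 for 18. Its median was 0.16, against 0.0023 when each member was set against all tested probe sets. The median absolute r was 0.26, against 0.29 when each member was set against all tested probe sets, and an absolute r of 0.7 or above was found in 6.67% of the member pairs and 6.04% of those others. After adjustment over the 45 pairs, 0 pairs passed by exact permutation, with lowest adjusted p-values of 0.425 for Pearson's r and 0.721 for Spearman's rho; 2 pairs had an unadjusted p under 0.05 by each measure. Nfe2l2 had a positive r with 5 of the other 9 genes. Its r was 0.43 with Srxn1, 0.29 with Gsr, −0.03 with Nqo1, −0.09 with Gclm and −0.56 with Gclc. Among the 15 pairs of Nqo1, Srxn1, Osgin1, Gclc, Gclm and Gsr, each a known NRF2 target, 7 were positive and the median r was −0.16.

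**Figure D4:**
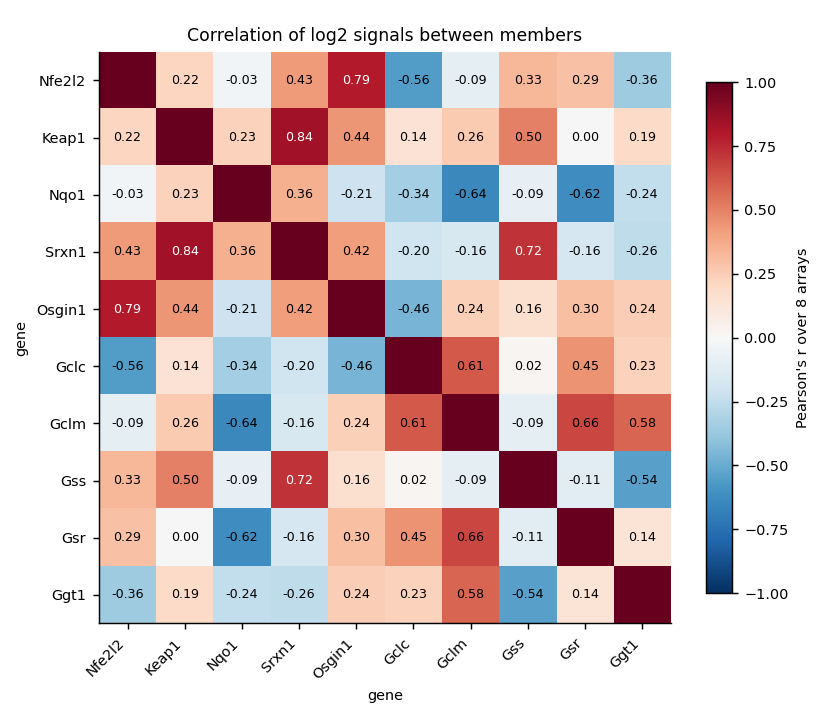
Pearson's r of log2 signal over the 8 arrays for each pair of the 10 genes (rows and columns, colour and number from −1 to 1). The values run from −0.64 for Nqo1 and Gclm to 0.84 for Keap1 and Srxn1, and positive and negative values are mixed among the NRF2 targets.

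Nfe2l2 and Osgin1 varied in the same direction over the arrays, with r = 0.79 (exact permutation p = 0.0189, adjusted p = 0.425 over 45 pairs) and Spearman's rho = 0.64 (p = 0.0962, adjusted p = 0.721). Both were lowest on hydrogen water arrays 1 and 3. Without control array 4 and hydrogen water array 1, those farthest from the Nfe2l2 median, r was 0.76, and after subtraction of group means it was 0.76 as well. As high an r with Nfe2l2 was seen for 1.95% of all tested probe sets, and with Osgin1 for 1.33%.

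Keap1 and Srxn1 had the highest r, 0.84 (exact permutation p = 0.0144, adjusted p = 0.425; Spearman's rho = 0.75, p = 0.0382, adjusted p = 0.721). Both were highest on control array 2 and lowest on hydrogen water array 2. These are the ends of the Keap1 range, and without both of them r was 0.35, so that the relation rested on them as a pair. With any 1 array left out r stayed between 0.74 and 0.90, and after subtraction of group means it was 0.81. With median centring in place of quantile normalization r was 0.87 and the adjusted p was 0.0469. This was the 1 setting in which a pair passed among the other normalizations and pseudocounts and with each array left out. All these values are for the brightest probe set of each gene. The brightest pair of Srxn1 probe sets correlated at only r = 0.05 over the 8 arrays. The relation was not tested with the other probe sets of Keap1 and Srxn1, so it is shown for the brightest ones only.

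Nqo1 ran against Gclm, with r = −0.64 (exact permutation p = 0.0834, adjusted p = 0.668) and Spearman's rho = −0.81 (p = 0.0218, adjusted p = 0.721), and r = −0.87 without hydrogen water arrays 2 and 3. Gclc and Gclm, the subunits of 1 enzyme, had r = 0.61 (exact permutation p = 0.102, adjusted p = 0.668) and Spearman's rho = 0.64 (p = 0.0962, adjusted p = 0.721), and r = 0.58 without control array 4 and hydrogen water array 1. None of these values passed the adjustment.

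**Figure D5:**
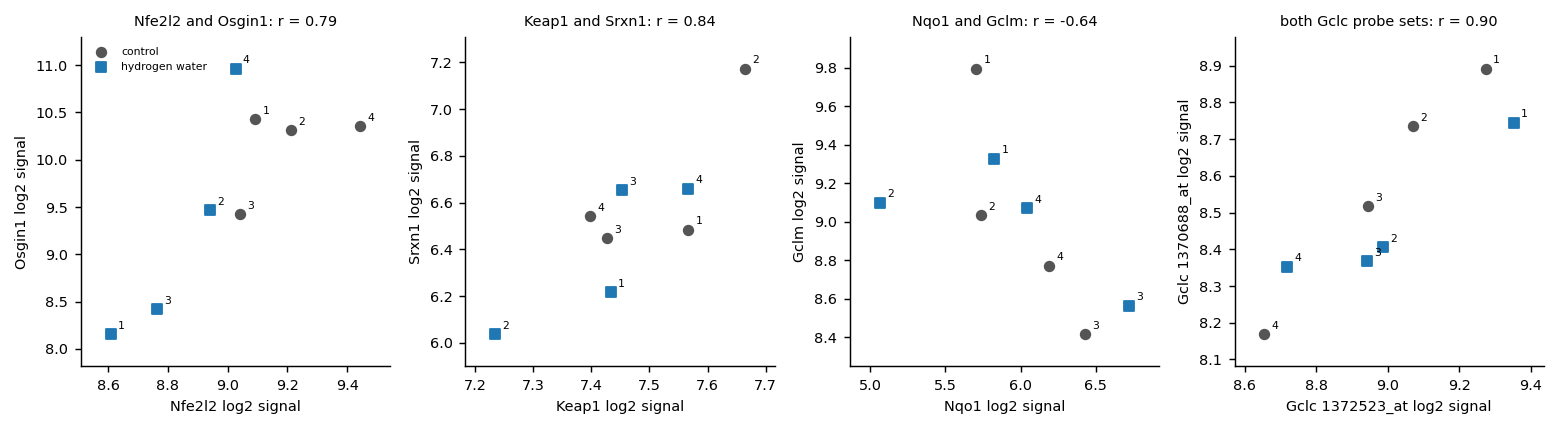
Log2 signal of 1 gene against another on the 8 arrays (control, grey circles; hydrogen water, blue squares; numbers are array numbers within the group), for Nfe2l2 and Osgin1, Keap1 and Srxn1, Nqo1 and Gclm, and both probe sets of Gclc. Hydrogen water arrays 1 and 3 are at the lower left for Nfe2l2 and Osgin1, and control array 2 and hydrogen water array 2 are the ends of the Keap1 and Srxn1 plot.

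For the 3 members with the largest SD over the 8 arrays, the genes of most similar pattern were looked up among 9105 others, so that the values are the highest of many and are given with no test. Osgin1 was most like Apaf1, the scaffold of the apoptosome, with r = 0.985, then Ate1, an arginyltransferase, with 0.964, and Palmd with 0.947. These stayed at or above 0.913 when any 1 array was left out. Nqo1 was most like Scrn2 (r = 0.955), the formin Inf2 (0.951) and Zmym5 (0.947). Gss was most like Mlycd, malonyl-CoA decarboxylase, with r = 0.971, the translation factor subunit Eif2b2 with 0.953 and Tm9sf4 with 0.951; that of Eif2b2 was 0.758 when the array that set it most was left out. No member gene was among these 9 genes. For the brightest probe sets this was already settled by the pairs above, where the highest r between members was 0.84.

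The wider pathway was read through 5 lists, which share some genes. Of their 110 tested genes 0 passed in limma; 12 of them, or 10.9%, reached an unadjusted p under 0.05, against 12.2% of all 9106 genes tested. Of 32 listed regulators and partners of NRF2, 20 were tested in limma and 0 passed. Of the 20, 7 had an unadjusted p under 0.05, 5 higher and 2 lower. That share is above the 12.2% of all genes tested, and the list was written with earlier results of these data known. No test of the list was run. The list's median was −0.04 against −0.0020 over all genes. Sesn2, a sestrin that promotes the removal of KEAP1, averaged 8.20 ± 0.62 on control arrays and 9.15 ± 0.31 on hydrogen water arrays (SD, n = 4 per group). The difference of 0.94 ± 0.27 (SE; adjusted p = 0.150 in limma) passed in 1 of the 22 other settings, without control array 3 (1.21 ± 0.20, adjusted p = 0.0181). Nfe2l1, the NRF1 factor related to NRF2, averaged 6.78 ± 0.09 and 6.36 ± 0.20 in the same order (SD, n = 4 per group), a difference of −0.42 ± 0.13 (SE; adjusted p = 0.186 in limma). The retinoid receptor Rxra, which can repress NRF2, differed by 0.39 ± 0.12 and the coactivator Ep300 by −0.32 ± 0.10 (SE; adjusted p = 0.184 and 0.209).

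Of 53 other listed NRF2 targets, 35 were tested and 0 passed. Of the 35, 1 had an unadjusted p under 0.05, a share below the 12.2% of all genes tested. This gene, Htatip2, differed by −0.40 ± 0.13 (SE, adjusted p = 0.217 in limma). The median was 0.03, with 22 genes higher and 13 lower. The carboxylesterase Ces2c differed by 0.56 ± 0.31, Abcb6 by 0.20 ± 0.12 and the glutathione transferase Gstm3 by 0.80 ± 0.48 (SE). Without normalization Htatip2 and Nfe2l1 passed, both lower, in the setting where nearly all probe sets were lower.

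Of 27 genes of glutathione turnover and precursor supply, 20 were tested in limma; 0 passed and 0 reached an unadjusted p under 0.05, with a median of −0.01. Chac1, a cytosolic enzyme that cleaves glutathione, differed by −0.62 ± 0.38 and Ggt5 by 0.34 ± 0.21 (SE; adjusted p = 0.565 and 0.579). The 5-oxoprolinase Oplah differed by −0.14 ± 0.09 and the dipeptidase Dpep1 by 0.40 ± 0.27 (SE). Of 39 enzymes that use glutathione, 33 were tested, 0 passed and 2 had an unadjusted p under 0.05, both higher. Over all genes tested 12.2% had such a p, so that the share of this list is below the background. The glutaredoxin Glrx averaged 8.94 ± 0.18 on control arrays and 9.46 ± 0.14 on hydrogen water arrays (SD, n = 4 per group). Its adjusted p in limma was 0.0560, and 0.0413 with array weights and 0.0406 with the replicate number as a block. Gpx1 differed by 0.16 ± 0.06, Gsto1 by 0.17 ± 0.08 and Ethe1 by 0.78 ± 0.42 (SE). With the Gapdh ratio as a covariate Ethe1 and Mgst3, a microsomal transferase, passed, both higher (adjusted p = 0.0152 and 0.0119).

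NADPH, the electron donor of Gsr and Nqo1, is supplied by a set of dehydrogenases. Of 18 listed genes, 14 were tested in limma; 0 passed and 2 of the 14 reached an unadjusted p under 0.05, both higher, where 12.2% of all genes did, so that the count is near the background. These were H6pd, which makes NADPH in the endoplasmic reticulum, at 0.30 ± 0.12, and Mthfd1 of folate metabolism at 0.29 ± 0.12 (SE; adjusted p = 0.313 and 0.328). Idh1 and Idh2, the cytosolic and mitochondrial isocitrate dehydrogenases, differed by −0.14 ± 0.07 and 0.24 ± 0.15 (SE). The median of the list was 0.07, with 10 genes higher and 4 lower.

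In whole liver RNA, fewer cells of a type and less RNA per cell cannot be told apart. Of 53 tested entries in 7 lists of cell type markers, 0 passed in limma, and 5, or 9.43%, reached an unadjusted p under 0.05, against 12.2% of all genes tested. The 10 measured of 13 cholangiocyte markers, bile duct genes, had a summed signal of 2645 to 3317 in controls and of 2013 to 2325 with hydrogen water, without overlap, lower as for Nfe2l2. The keratins Krt18 and Krt8, which hepatocytes also make, held 44.7% and 41.3% of that sum. Krt18 was the 1 marker of the 10 whose groups did not overlap. Among all tested probe sets 7.48% had groups without overlap, and 3.63% were lower in this way. Krt18 differed by −0.71 ± 0.15 (SE, adjusted p = 0.0576 in limma). Of the 6 tested cholangiocyte markers, 5 were lower with hydrogen water and 1, Aqp1, was higher. Epcam differed by −0.37 ± 0.17 and Aqp1 by 0.54 ± 0.21 (SE, adjusted p = 0.424 and 0.315 in limma). Anxa4 and Krt19 averaged 7.33 and 4.50 in controls and 7.28 and 4.46 with hydrogen water. Spp1, under the filter, averaged 3.96 in controls and 3.39 with hydrogen water. Krt7, Cftr and Slc5a1, also under the filter, averaged 2.51, 3.27 and 2.54 in controls and 3.16, 3.70 and 2.90 with hydrogen water. For hepatocyte markers, 12 of 13 measured, the sum was 84253 to 89658 in controls and 85559 to 89100 with hydrogen water. The ranges for macrophage, stellate cell and lymphocyte markers also overlapped between the groups, as did those for endothelial and erythroid ones. The part of these markers in the values of Nfe2l2 and Ggt1 was not tested.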

How the data were processed

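Liver total RNA was measured on Affymetrix arrays with biotin labelling, per the labels' protocols. The deposited values are intensities on a linear scale, 1 signal per probe set, that the authors made with MAS5, per the submitters' processing notes; the sources used here give no version, scaling target or detection call. Control probe sets (57) were left out, the arrays were quantile-normalized, and 2.05 (10% of the median signal of 20.5) was added before log2. This addition shrinks the fold between single signals of a dim probe set, but not always the difference of group means. Without it, that difference was 0.40 in place of 0.34 for Ggt1, and −0.41 in place of −0.47 for Srxn1 probe set 1381067_at. The 15521 of 31042 probe sets at or above the median mean log2 signal were tested with lmFit and eBayes (trend) of limma 3.58.1 in R 4.3.3, control against hydrogen water, with Benjamini-Hochberg adjustment over all of them at 0.05. Prior degrees of freedom were 4.90. SE and intervals are from this fit.

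Symbols came from the platform annotation; all 14 member probe sets matched the RefSeq gene table by Entrez ID. Correlations used all 40320 orders of the 8 arrays for exact two-sided p-values. The fit and the correlation step were tested on simulated data. Named genes were all members, up to 4 genes of each pathway list in order of p, 3 genes most like each of the 3 most variable members, and defining markers; Mgst3 was named after its values were seen. The members and gene lists were chosen with earlier results of these data known. The alternatives were other normalizations, pseudocounts, filters and priors, array weights, a replicate block, a brightness covariate, leaving out each array and, added after seeing the data, the Gapdh ratio as a covariate. In the labels the same-numbered arrays share only a number. A check on their correlation, in which 2 of the 8 arrays matched their own number best, cannot settle if they were paired.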

Additional observations from a re-analysis of the deposited data

Results flagged for a closer look

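In 28 groups of 4 arrays, 14 probe sets in 2 groups each, 4 held an array whose gap to the next, as a share of the group's range, exceeded Dixon's 95% critical value; chance marks about 1 in 20 groups. Srxn1 at probe set 1372510_at was 7.17 on control array 2, against 6.54 for the next. Srxn1 at the dim probe set 1381067_at was 1.22 on control array 3, against 3.44 for the next. Osgin1 was 9.42 on control array 3, against 10.31 for the next. Gclc at probe set 1370688_at was 8.74 on hydrogen water array 1, against 8.41 for the next, and that array was also the highest of its group at the other Gclc probe set.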

How the results depend on the processing

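The count of member probe sets past the threshold was 0 in all 22 other settings. Of 292 values of member probe sets under them, 269 counted as unchanged. For tested probe sets this means the same direction and side of the threshold. For those under the filter it means that the difference moved by less than the pooled SD within groups. The other 23 values, all of tested probe sets, turned sign. They were, without normalization −0.23 for Srxn1 (1384331_at), −0.32 for Gclc (1372523_at) and −0.32 for Gclm; with median centring −0.057 for Gclc (1372523_at) and −0.054 for Gclm; with the brightness covariate −0.036 for Srxn1 (1384331_at) and −0.042 for Gclc (1372523_at); with the Gapdh covariate 0.056 for Keap1 (1387810_at), −0.030 for Srxn1 (1384331_at) and −0.12 for Gclm. Nqo1 was at 0.52 with the Gapdh covariate. With 1 array left out, the difference ran from −0.52 to 0.013 for Gss, from −0.37 to 0.18 for Nqo1, from −0.19 to 0.28 for Gclm, from −0.10 to 0.11 for Gclc (1372523_at) and from −0.082 to 0.29 for Srxn1 (1384331_at).

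Over all probe sets, 128 passed, 53.9% of them higher, and 505 did without normalization (4.16% higher), 64 without a trend, 12 with the brightness covariate (16.7% higher), 239 with the Gapdh covariate and 55 to 197 with 1 array left out; the share higher was 29.4% with median centring and 70.8% with spike-in scaling. In the pathway lists 2 genes passed without normalization and 0 to 1 with 1 array left out, against 0. Pairs were recomputed only under the other normalizations and pseudocounts and with each array left out; of the 45, 1 passed with median centring and 0 in the rest of these. With the replicate number as a replicate block 181 probe sets passed and still 0 members; 2 of the 8 arrays correlated best with their own number. Of 204 list medians under other settings 15 moved by more than the spread between arrays. The cause of each difference between settings was not tested.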

Other observations

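Brightness and the Gapdh 3′ to 5′ ratio were each set against the 10 genes over the 8 arrays, 20 relations in all. The adjusted p was 0.987 for each Pearson's r by exact permutation. The r furthest from 0 with brightness was 0.55, for Osgin1 (unadjusted p = 0.154), and with the Gapdh ratio −0.55, for Nqo1 (unadjusted p = 0.159). Some values moved far without the 2 arrays farthest from the median of the measure. Without control arrays 1 and 3, the farthest in brightness, r with brightness was 0.92 for Osgin1, 0.84 for Nfe2l2 and −0.86 for Gclc, against 0.55, 0.52 and −0.12 over all 8 arrays. Without control array 1 and hydrogen water array 2, the farthest in the Gapdh ratio, r with that ratio was −0.70 for Nqo1 and 0.96 for Gclm, against −0.55 and 0.12.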
